A study of Mus musculus with 2 samples.

Results

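The 10 genes described here encode the AP-1 transcription factors and other immediate early factors of the mouse brain: Fos, Fosb, Fosl1, Fosl2, Jun, Junb, Jund, Atf3, Egr1 and Npas4. They were chosen by name, 10 of 21911 protein coding genes in the annotation, and their accessibility was taken as the number of fragments touching the gene or the 2 kb before it, here called the gene's window. The data are single-cell ATAC-seq of nuclei, in which Tn5 transposase cuts open chromatin and each sequenced fragment is assigned to a nucleus by its barcode. Brains of wild-type C57BL/6J male mice aged 8 to 12 weeks were taken 48 h after 1 h of middle cerebral artery occlusion by filament and reperfusion (Stroke), or after filament insertion without sustained occlusion (Sham). Each condition was 1 library made from nuclei pooled over 4 brains, with the ipsilateral hemisphere used for stroke and, as the label states it, the brain for sham; olfactory bulbs and cerebellum were left out. The surgery, the side and amount of tissue taken and the library therefore cannot be told apart, and no difference between conditions could be tested.

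Immediate early genes are switched on within minutes of synaptic activity, growth factor signaling or injury, without new protein synthesis. Fos and Jun proteins pair through leucine zippers and bind as the AP-1 dimer to the letters TGACTCA, whereas Jun dimers and ATF and CREB proteins also bind the cyclic AMP response element (CRE), TGACGTCA. In neurons the fast members follow calcium entry and membrane depolarization, and in glia AP-1 is known for its part in the response to wounding. Accessibility at these genes reports open DNA, not transcript or protein.

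The analysis kept called barcodes with more than 20% of their fragments in peaks, which left 6817 of 6979 sham and 5054 of 8740 stroke barcodes. The median kept nucleus held 10356 fragments in sham and 9898 in stroke. Of the fragments of kept nuclei, 40.4% lay in peaks in sham and 34.3% in stroke. The libraries shared 66 called barcodes. Nuclei were assigned to 7 classes by the accessibility of fixed marker genes summed over each nucleus and its neighbours, which placed 2860 sham and 1620 stroke nuclei in the glutamatergic gate, 1561 and 957 in the GABAergic gate and 359 and 491 in the astrocyte gate. The oligodendrocyte gate held 95 and 137 nuclei, the oligodendrocyte precursor (OPC) gate 114 and 105, the myeloid gate 19 and 163 and the vascular gate 51 and 63. The 1758 sham and 1518 stroke nuclei that remained were left without a class. The astrocyte marker genes, for example, summed to 1478 CPM (fragments per 1000000 fragments of the nuclei concerned) in sham and 1387 in stroke within their own gate, against 145 to 530 in the other gates, and each of the other marker lists was likewise highest in the gate named for it. The gates were set on these same lists, so this order follows from the rule and does not check the classes. Markers of granulocytes and of choroid plexus and ependyma were not used for gating. The granulocyte list ran from 14.5 to 80.9 CPM over the gates, summed over 7 genes, and the other from 33.1 to 104.6 over 6 genes. The granulocyte list was highest in the myeloid gate, at 49.7 in sham (6 fragments) and 80.9 in stroke. Over all nuclei it was at 33.3 and 34.1. The share of granulocytes in the myeloid gate was not tested.

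The Fos family members cannot pair with themselves and act through a Jun partner. Fos, the prototype of the group, lies at chr12:85473890-85477273 on the plus strand (mm10, gene ENSMUSG00000021250.13). Fosb, whose spliced form accumulates in striatal neurons under repeated stimulation, lies at chr7:19302696-19310051 on the minus strand. Fosl1 (Fra-1), at chr19:5447547-5455946, shares its counting window with the gene Ccdc85b. Fosl2 (Fra-2) spans chr5:32135801-32157842. Of the Jun proteins, Jun (chr4:95049034-95052222) is activated by the stress kinase JNK, Junb (chr8:84974484-84978718) is a weaker activator that can oppose Jun, and Jund (chr8:70698949-70700616) is the constitutive member. The Junb window also touches Prdx2, and the windows of Jun and Jund overlap the antisense genes Junos and Gm11175, so fragments there cannot be told apart. The windows of Atf3 and Npas4 likewise overlap the noncoding entries Gm24748 and AC124502.5. Atf3 (chr1:191170296-191218039) encodes a stress-induced factor that pairs with Jun proteins. Egr1 (chr18:34859823-34864984) encodes a zinc finger factor induced by growth factors and activity, and Npas4 (chr19:4984355-4990316) a neuronal factor that responds selectively to calcium influx.

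For each gene the level is given in CPM, with an exact 95% Poisson interval, and the ratio of stroke to sham with an exact conditional interval. These intervals cover counting error only and say nothing of the spread between animals. A gene was counted as past 1.5-fold when its ratio exceeded 1.5 or fell short of its inverse, among genes with at least 30 fragments summed over both libraries. The same count over all genes tested serves as the background.

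The promoters of 3 members are shown because their accessibility differed most between the libraries near the start site or because they carry the CRE-like letters through which activity-dependent genes are read. Promoters from RefSeq (build GRCm38.p6) matched 8 of the 10 members, all but Fosl1 and Egr1. Each line gives the 250 bases before the RefSeq start on the gene's own strand, 5′ to 3′. Capitals mark the CRE core TGACGT on either strand, the TATA box TATAAA and the MEF2 motif.
Fos, chr12:85473640-85473889, plus strand: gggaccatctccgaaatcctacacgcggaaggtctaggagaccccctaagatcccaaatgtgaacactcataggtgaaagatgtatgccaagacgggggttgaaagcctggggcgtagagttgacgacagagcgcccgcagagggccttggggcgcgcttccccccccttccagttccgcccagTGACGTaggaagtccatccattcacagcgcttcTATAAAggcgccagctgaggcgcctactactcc
Npas4, chr19:4989972-4990221, minus strand: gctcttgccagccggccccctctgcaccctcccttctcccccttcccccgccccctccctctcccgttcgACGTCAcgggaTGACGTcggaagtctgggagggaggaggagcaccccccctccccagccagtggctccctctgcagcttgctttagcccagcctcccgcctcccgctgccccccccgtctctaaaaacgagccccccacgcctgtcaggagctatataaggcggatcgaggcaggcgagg
Atf3, chr1:191183334-191183583, minus strand: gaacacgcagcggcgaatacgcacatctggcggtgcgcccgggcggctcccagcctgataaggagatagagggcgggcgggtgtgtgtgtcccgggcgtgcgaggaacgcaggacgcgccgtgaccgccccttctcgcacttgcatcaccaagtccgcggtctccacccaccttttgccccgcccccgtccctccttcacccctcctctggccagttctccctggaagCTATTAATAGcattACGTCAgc
In Fos the CRE core stood at -66 to -61 and the TATA box at -33 to -28 relative to the start. Npas4 held CRE cores at -180 to -175 and at -169 to -164. Atf3 held a CRE core at -8 to -3 and a MEF2 match at -22 to -13. The Jun promoter held a MEF2 match only, and those of Fosb, Fosl2, Junb and Jund held none of the motifs searched, which were the CRE core, the full CRE, AP-1, EGR (GCGTGGGCG), TATA, MEF2 and the CArG box bound by serum response factor. None of the 8 promoters searched held TGACTCA. For Jund the RefSeq start lies 1210 bases before the start in the GENCODE annotation. In the astrocyte and both neuronal gates, the 500 bases with the most cuts within 50 kb of Jund held that GENCODE start. The bases just before it were not searched. Among 32851 promoters of this length, 6.47% held the CRE core, 12.4% the TATA box, 4.46% the AP-1 motif and 0.508% the MEF2 motif. Such a match is a description of the letters and not evidence of a bound site.

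Over all kept nuclei, Npas4 had the lowest ratio of stroke to sham, Fosb, Jund and Egr1 were lower by less, and Atf3 and Junb were higher. Npas4 was at 29.5 CPM in sham and 16.9 in stroke, a ratio of 0.571 (95% interval 0.528 to 0.618). This was the one member past 1.5-fold, in the direction taken by 0.334% of the 20689 genes tested, while 10.7% of genes were past 1.5-fold in the other direction. Atf3 was at 24.3 in sham and 33.0 in stroke, a ratio of 1.36 (1.27 to 1.45). Junb was at 60.3 and 69.1, a ratio of 1.15 (interval 1.096 to 1.197). Fosb was at 44.8 and 34.0 (ratio 0.759), Jund at 50.4 and 42.9 (0.851) and Egr1 at 67.6 and 58.3 (0.863). The intervals of these 6 ratios all left out 1, but the share of all genes whose interval did so was not counted. Among all genes tested, Atf3 and Junb stood at the 85.2 and 74.1 percentiles of the ratio. Npas4, Fosb, Jund and Egr1 stood at the 0.0628, 2.06, 13.6 and 16.4 percentiles. Fos, Fosl1, Fosl2 and Jun had ratios between 0.952 and 1.02, with intervals that held 1. The median log2 ratio of the 10 members was -0.06, beside -0.03 over all genes. The classes made up different shares of the libraries, so a level over all nuclei mixes their composition with accessibility within a class. Without the filter on peaks, 4 members were past 1.5-fold, all lower, beside 17.8% of all genes lower and 20.7% higher under that setting. Among the nuclei left without a class, none of the 10 members was past 1.5-fold, beside 9.49% of 19224 genes higher and 2.79% lower. Npas4 (21.6 and 15.3, ratio 0.709) and Atf3 (24.3 and 35.2, ratio 1.45) came nearest to it there.

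On a scale corrected for window length, Jund, Jun and Junb were the most accessible members and Atf3 the least. In sham, Jund was at 13.7 CPM per kb of window, Jun at 11.1, Junb at 9.67 and Egr1 at 9.44. Fosb was at 4.79, Fos at 3.73, Npas4 at 3.71, Fosl2 at 1.76, Fosl1 at 1.44 and Atf3 at 0.489, whose window of 49.7 kb was the longest of the 10. The order in stroke was Jund at 11.7, Jun at 11.3, Junb at 11.1 and Egr1 at 8.15, with Atf3 again lowest at 0.663. On this scale the 3 Jun genes and Egr1 stood apart from the Fos genes, Atf3 and Npas4 in both libraries. Their windows (3.67 to 7.16 kb) were shorter than those of the other members except Fos (5.38 kb). In CPM they were also the highest, but in stroke Jund at 42.9 (41.1 to 44.7) overlapped Fosl2 at 40.9 (39.2 to 42.6). The part of window length in this order was not tested.

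Levels differed between the gates. Npas4 was highest in neurons, at 35.7 CPM in GABAergic and 32.9 in glutamatergic nuclei of sham, intervals of which overlapped, against 7.56 in astrocytes and 6.48 in oligodendrocytes. OPC nuclei were between these at 18.2, with an interval (10.2 to 29.99) that overlapped that of astrocytes. In sham no Npas4 fragment was found in the myeloid or the vascular gate, where 0 counts allow up to 24.8 and 25.5 CPM, taken as 3 fragments, and the exact intervals drawn in the plot of levels reach 30.5 and 31.4. In stroke the neuronal levels were 20.8 in glutamatergic and 18.7 in GABAergic nuclei, above 6.94 in astrocytes, 6.88 in oligodendrocytes and 8.20 in myeloid nuclei. The stroke intervals of vascular (12.5, 2.58 to 36.5) and OPC nuclei (9.33, 3.75 to 19.2) reached those of neurons, and that of oligodendrocytes (2.23 to 16.06) just reached the GABAergic one. Fos was highest in astrocytes, at 55.1 in sham and 56.8 in stroke, beside 17.5 and 13.3 in glutamatergic nuclei. The interval for astrocytes in sham (46.7 to 64.5) did not overlap that of OPC nuclei, the next in order (17.7 to 41.8), whereas in stroke these neighbours overlapped. The wide sham intervals of vascular (5.26 to 74.5) and myeloid nuclei (5.12 to 72.6) held the astrocyte level. Atf3 was highest in vascular and myeloid nuclei, at 119.0 and 74.5 in sham and 112.5 and 104.9 in stroke, and these neighbours did not differ beyond their intervals in either library. Jun was higher in each of the 5 other gates than in both neuronal gates, at 74.5 to 129.6 against 51.9 to 55.5 in sham and at 87.5 to 106.6 against 49.9 to 54.6 in stroke, although the intervals of myeloid nuclei in sham (34.1 to 141.5) and of vascular nuclei in stroke (54.2 to 133.8) reached neuronal levels. Egr1 in glutamatergic, GABAergic and astrocyte nuclei of sham was at 68.2, 73.1 and 82.8, and each neighbouring pair had overlapping intervals. In stroke Egr1 ran from 89.97 in astrocytes (80.95 to 99.7) to 37.2 in oligodendrocytes (24.5 to 54.1). Fosl2 changed its place in the order, being at 28.1 in sham astrocytes, below GABAergic (45.7) and glutamatergic (45.5) nuclei, and at 61.0 in stroke astrocytes, above both (42.8 and 38.5).

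**Figure D1:**
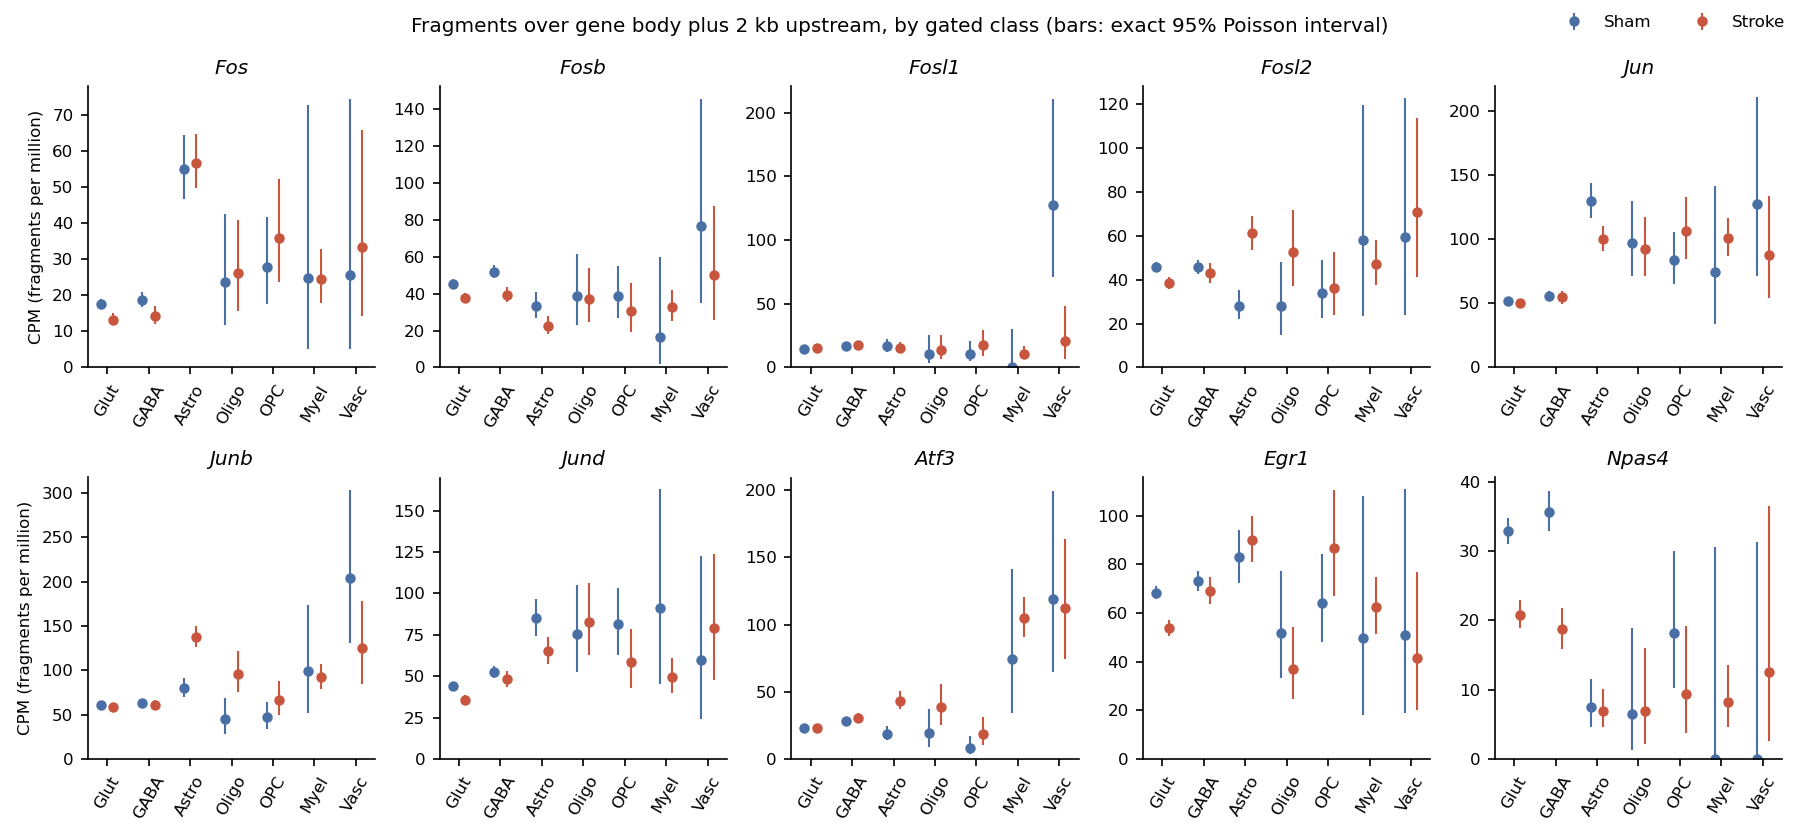
Level in CPM over each gene's window (vertical axis) in the 7 gated classes (horizontal axis), with sham in blue and stroke in red. Points are 1 library each and bars are exact 95% Poisson intervals. Npas4 is high in the 2 neuronal gates and lower there in stroke, and the stroke points of Atf3, Fosl2 and Junb lie above the sham points in astrocytes.

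In glutamatergic nuclei Npas4 was lower in stroke by more than 1.5-fold, and Fos, Egr1, Jund, Fosb and Fosl2 were lower by less. Npas4 was at 32.9 CPM in sham and 20.8 in stroke, a ratio of 0.633 (0.565 to 0.708). It was the 1 member of 10 past 1.5-fold, in the direction of 1.01% of the 19185 genes tested, with 4.68% past it in the other direction. Fos was at 17.5 and 13.3, a ratio of 0.761 (0.657 to 0.880), and Egr1 at 68.2 and 53.6, a ratio of 0.786 (0.731 to 0.845). Jund, Fosb and Fosl2 were also lower, with ratios of 0.809, 0.830 and 0.847, and the interval of each left out 1. Jun (0.961), Junb (0.967), Atf3 (1.02) and Fosl1 (1.02) had intervals that held 1. None of the 10 was higher by an interval that left out 1. The share of all genes whose interval left out 1 was not counted. Among all genes tested, Npas4, Fos and Egr1 stood at the 0.709, 3.60 and 5.45 percentiles of the ratio. Jund, Fosb and Fosl2 stood at the 8.02, 10.9 and 14.1 percentiles. The median log2 ratio of the members was -0.25, beside -0.03 over all genes. Scaled to fragments near start sites in place of all fragments, Npas4 had a log2 ratio of -0.50, which is short of 1.5-fold. That scaling raises every ratio of this gate by the same factor. It moved Npas4 from -0.66 to -0.50 in log2. The upper interval ends of Fosb (-0.14) and Fosl2 (-0.12) lie nearer to no change than that shift, so their intervals then held 1. Those of Fos (-0.18), Jund (-0.18) and Egr1 (-0.24) lie further off and still left it out. The share of fragments within 1 kb of a start was 18.6% in sham and 16.7% in stroke in this gate, and the share in peaks 43.5% and 36.7%; the part of these differences in the ratios was tested only by that scaling.

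In GABAergic nuclei Npas4 differed most, and the other members except Fos and Fosb were near their sham level. Npas4 was at 35.7 in sham and 18.7 in stroke, a ratio of 0.524 (0.438 to 0.624). It was again the only member past 1.5-fold, beside 2.12% of 18137 genes in that direction and 3.84% in the other. Fos was at 18.7 and 14.3, a ratio of 0.766 (0.617 to 0.945), and Fosb at 52.0 and 39.5, a ratio of 0.759 (0.668 to 0.861). The ratios of Fos and Fosb stood at the 6.45 and 5.92 percentiles of all genes tested. The remaining 7 ratios lay between 0.916 for Jund and 1.07 for Atf3, and their intervals held 1. Egr1, lower in the glutamatergic gate, was at 73.1 and 69.0 here (0.945, 0.855 to 1.04); the difference between the gates was not tested.

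In astrocyte nuclei Atf3, Fosl2 and Junb were higher in stroke, while Jun, Jund and Fosb were lower. Atf3 was at 18.7 CPM in sham and 43.4 in stroke, a ratio of 2.32 (1.69 to 3.22). Fosl2 was at 28.1 and 61.0, a ratio of 2.17 (1.68 to 2.84). Junb was at 80.3 and 137.6, a ratio of 1.71 (1.46 to 2.01). These were the 3 members of 10 past 1.5-fold, all higher, beside 9.46% of the 15715 genes tested that were past it higher and 6.19% lower. Their log2 ratios stood at the 98.1, 97.6 and 94.2 percentiles of all genes tested. Jun, with which Fos proteins and Atf3 can pair, was lower, at 129.6 in sham and 99.9 in stroke (0.771, 0.667 to 0.891). Jund was at 85.0 and 65.2 (0.767, 0.641 to 0.919) and Fosb at 33.1 and 22.6 (0.681, 0.504 to 0.920). The ratios of Jun, Jund and Fosb stood at the 16.0, 15.6 and 7.07 percentiles of all genes tested. Fos (1.03), Egr1 (1.09), Fosl1 (0.928) and Npas4 (0.918) had intervals that held 1. With members on both sides, the median log2 ratio was -0.03, the same as over all genes. No single nucleus carried these values, since the most fragments found in any 1 astrocyte nucleus were 6 for Atf3, 10 for Fosl2 and 6 for Junb. In the same gate the myeloid marker list stood at 381 in sham and 395 in stroke, the vascular list at 376 and 412 and the glutamatergic list at 226 and 197 CPM. The median astrocyte nucleus held 6602 fragments in sham and 7636 in stroke. The share of fragments within 1 kb of a start was 28.0% in sham and 25.4% in stroke in this gate. Scaled to fragments near start sites, 3 members were past 1.5-fold, all higher, beside 14% of genes higher and 3.23% lower. That scaling raises every ratio of this gate alike, with Fosl2 moving from 1.12 to 1.26 in log2. The upper interval ends of Jund and Fosb, both -0.12 in log2, lie nearer to no change than that shift, so their intervals then held 1. The interval of Jun, with an upper end of -0.17, still left it out.

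**Figure D2:**
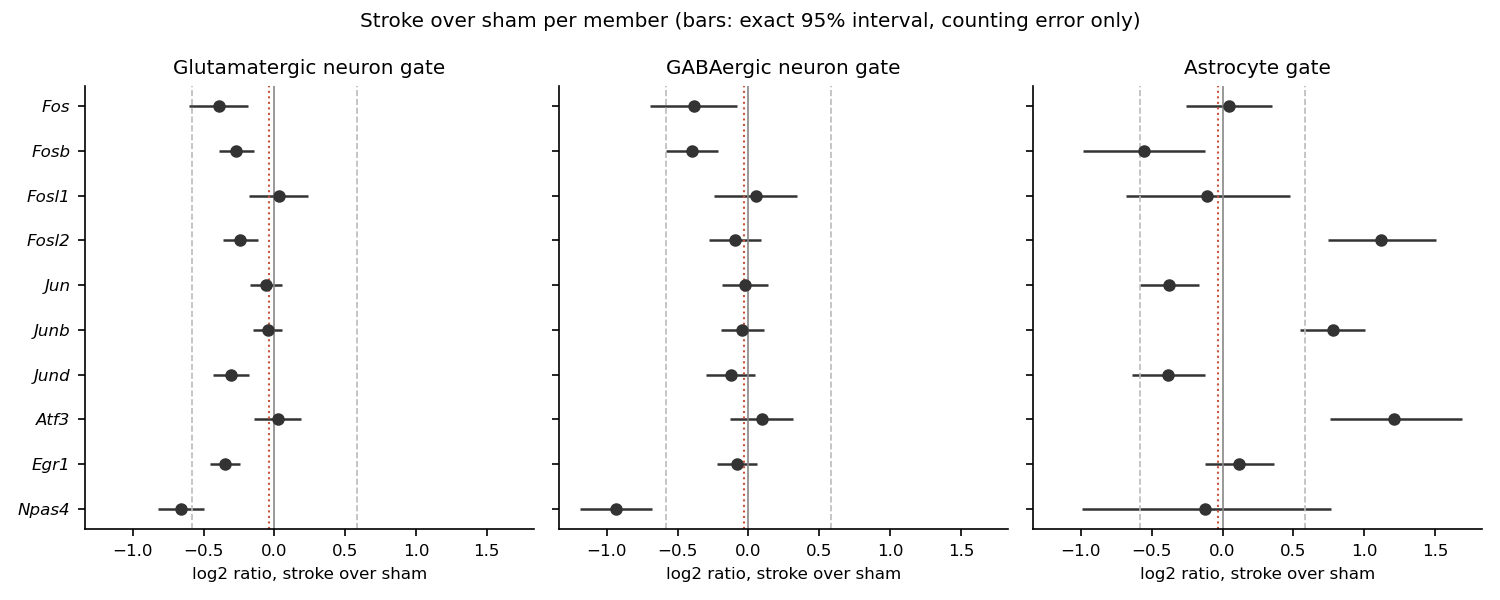
Log2 ratio of stroke over sham (horizontal axis) for the 10 members in the glutamatergic, GABAergic and astrocyte gates, with exact 95% intervals for counting error as bars. Dashed grey lines mark 1.5-fold in either direction and the dotted red line the median of all genes tested. Npas4 lies left of the line at 1.5-fold in both neuronal gates, and Atf3, Fosl2 and Junb lie right of it in astrocytes.

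The remaining gates held few nuclei and wide intervals. In oligodendrocytes 3 of 8 members tested were past 1.5-fold, all higher, beside 12.5% of genes higher and 14.9% lower. Junb was at 45.3 in sham and 96.3 in stroke (2.13, 1.29 to 3.65), and its interval left out 1. The astrocyte marker list in this gate was at 259 in sham and 356 in stroke, and its part in these values was not tested. Atf3 (19.4 and 38.5, ratio 1.98) and Fosl2 (28.1 and 52.3, ratio 1.86) rested on 9 and 13 sham fragments, and their intervals held 1. In OPC nuclei none of 7 members tested was past 1.5-fold, beside 9.06% of genes higher and 14.1% lower; Junb was at 47.3 and 66.6 (1.41, 0.909 to 2.20). In the myeloid gate, with 19 sham nuclei, Fosb was past 1.5-fold higher (1.98) and Jund lower (0.546) of 8 members tested, beside 30.6% and 20.6% of genes. Neither interval left out 1, and Fosb rested on 2 sham fragments. Atf3 in this gate was at 74.5 in sham (34.1 to 141.5, from 9 fragments) and at 104.9 in stroke (90.6 to 120.9), a difference not detectable at this depth. The granulocyte list in the myeloid gate was at 49.7 in sham and 80.9 in stroke, and its part in these values was not tested. In the vascular gate 3 members reached 30 fragments, of which Junb (204.0 and 125.0, ratio 0.613, 0.346 to 1.10) was past 1.5-fold lower, beside 20.5% of genes lower and 18.3% higher. The vascular marker list of this gate was at 2244 in sham and 1563 in stroke, and its part in the Junb value was not tested. The sham vascular value of Fosl1 (127.5) rested on 15 fragments, of which 13 came from 1 nucleus.

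Within the windows, the differences of the leading genes sat in different places. For Atf3 in astrocytes they lay at the promoter shown above. Fragments within 1 kb of the RefSeq start were at 8.28 CPM in sham and 28.8 in stroke, a ratio of 3.47 (2.21 to 5.69), whereas the rest of the window had a ratio of 1.40 (0.884 to 2.27). In glutamatergic nuclei the same promoter was at 3.71 and 3.76. The RefSeq start lies 34706 bases inside the longer gene model that was used for counting. For Fosl2 in astrocytes the promoter (15.1 and 31.7, ratio 2.1) and the rest of the window (13.0 and 29.2, ratio 2.26) differed alike.

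Junb in astrocytes showed the opposite arrangement. Within 1 kb of its start it was at 46.8 in sham and 53.5 in stroke, a ratio of 1.14 with an interval (0.916 to 1.43) that held 1. The rest of its window was at 33.5 and 84.0, a ratio of 2.51 (1.99 to 3.19). Counted as cuts, the ends of fragments, in bins of 500 bases and scaled to 1000000 cuts (cut CPM), the bin from 2000 to 2500 bases after the start held 10.6 cut CPM in sham and 40.8 in stroke, a ratio of 3.84 (2.90 to 5.15), and held the most cuts within 50 kb of Junb when the libraries of this gate were summed. In sham alone it was below other bins, such as one 12 kb before the start (28.3 and 22.9 cut CPM), so it leads through the stroke library and its ratio is a description. Counted in the promoter alone (1 kb before to 500 bases after the GENCODE start), Junb had a log2 ratio of 0.18 in astrocytes, short of 1.5-fold. Outside its counting window, Jund too had a bin that was higher in stroke astrocytes, from 5000 to 5500 bases after its start (6.30 and 20.1 cut CPM, ratio 3.19, 2.20 to 4.73), while the bin at its gene, from 1000 to 1500 bases, was lower (50.04 and 32.6, ratio 0.651). For Jun the bin of 500 bases before the start was lower, at 63.9 and 43.3 cut CPM (0.677, 0.582 to 0.787). The bins were ranked by cuts or by ratio after their values were seen.

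In neurons Npas4, Fos and Fosb were divided in the same way. Npas4 in glutamatergic nuclei was at 21.2 within 1 kb of its start in sham and 12.01 in stroke (0.566, 0.488 to 0.655), and at 11.7 and 8.80 in the rest of its window (0.754, 0.629 to 0.901). The 500 bases before its start held 12.1 and 5.81 cut CPM, a ratio of 0.479 (0.413 to 0.554). In GABAergic nuclei the rest of the Npas4 window had the lower ratio, 0.427 (0.315 to 0.571), against 0.596 within 1 kb of the start. Fos in glutamatergic nuclei was at 11.7 and 7.91 within 1 kb of the start (0.678, 0.561 to 0.815) and at 5.79 and 5.39 in the rest of its window (0.930, 0.730 to 1.18). Fosb had ratios of 0.679 and 0.895 in the same parts. In glutamatergic nuclei the leading bin within 50 kb of Npas4, by cuts summed over the libraries, lay about 12 kb before its start (14.3 and 9.22 cut CPM, ratio 0.645). That of Fos in these nuclei lay about 38 kb before its start (17.5 and 11.6, ratio 0.660). A bin 18.5 kb before Fos, the most cut one in stroke glutamatergic nuclei, was at 15.05 and 12.4 (0.825, 0.740 to 0.918). One 12 kb after its start was at 11.4 and 10.4 (0.906, 0.803 to 1.02), with an interval that held 1. In GABAergic nuclei the leading Fos bin was the one 18.5 kb before the start (14.7 and 12.2, ratio 0.830).

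The 300 bases with the most cuts in or within 300 bases of the leading distal bin of Junb, Npas4 and Fos are shown to place these differences in the genome (GRCm38.p6, plus strand, 5′ to 3′). Capitals mark the CRE core TGACGT on either strand, the CArG box and the TATA box.
Junb, chr8:84976405-84976704: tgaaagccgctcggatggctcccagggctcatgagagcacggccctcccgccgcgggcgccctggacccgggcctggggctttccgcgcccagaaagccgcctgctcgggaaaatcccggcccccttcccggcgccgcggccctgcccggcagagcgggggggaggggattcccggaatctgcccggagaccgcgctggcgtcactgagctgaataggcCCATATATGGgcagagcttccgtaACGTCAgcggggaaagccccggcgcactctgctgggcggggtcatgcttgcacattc
Npas4, chr19:5001755-5002054: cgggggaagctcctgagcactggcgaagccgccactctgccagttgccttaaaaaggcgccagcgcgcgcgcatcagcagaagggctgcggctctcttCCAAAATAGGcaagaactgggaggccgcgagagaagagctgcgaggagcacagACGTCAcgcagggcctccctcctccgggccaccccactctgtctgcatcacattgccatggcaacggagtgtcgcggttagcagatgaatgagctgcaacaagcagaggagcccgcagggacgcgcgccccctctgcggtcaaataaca
Fos, chr12:85436098-85436397: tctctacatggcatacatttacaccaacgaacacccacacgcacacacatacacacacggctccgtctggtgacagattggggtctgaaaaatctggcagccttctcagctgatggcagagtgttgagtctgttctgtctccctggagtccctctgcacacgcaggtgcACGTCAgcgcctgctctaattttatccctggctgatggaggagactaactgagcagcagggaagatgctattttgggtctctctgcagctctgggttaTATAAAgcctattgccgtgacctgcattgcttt
The Junb window, centred 2194 bases after the start, lies in an exon of a noncoding transcript of Junb and outside its coding sequence and UTRs. In astrocytes it held 8.64 cut CPM in sham and 32.0 in stroke (3.70, 2.71 to 5.15). It contained a CRE core and a CArG box. The Npas4 window is intergenic, centred at -11933 bases from the start, and held 17.9 and 11.4 cut CPM in glutamatergic nuclei (0.636, 0.571 to 0.709), with a CRE core and a CArG box. The Fos window, centred at -37643 bases from the start, lies in an exon of the noncoding gene Gm40477, whose own start is 2 bases from the centre of the window. It held 16.4 and 10.4 cut CPM (0.631, 0.563 to 0.706), with a CRE core and a TATA box. None of the 3 held TGACTCA. Of 194014 consecutive windows of 300 bases on chromosome 19, 2.59% held the CRE core, 1.72% the CArG box, 25.02% the TATA box and 4.82% the AP-1 motif.

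**Figure D3:**
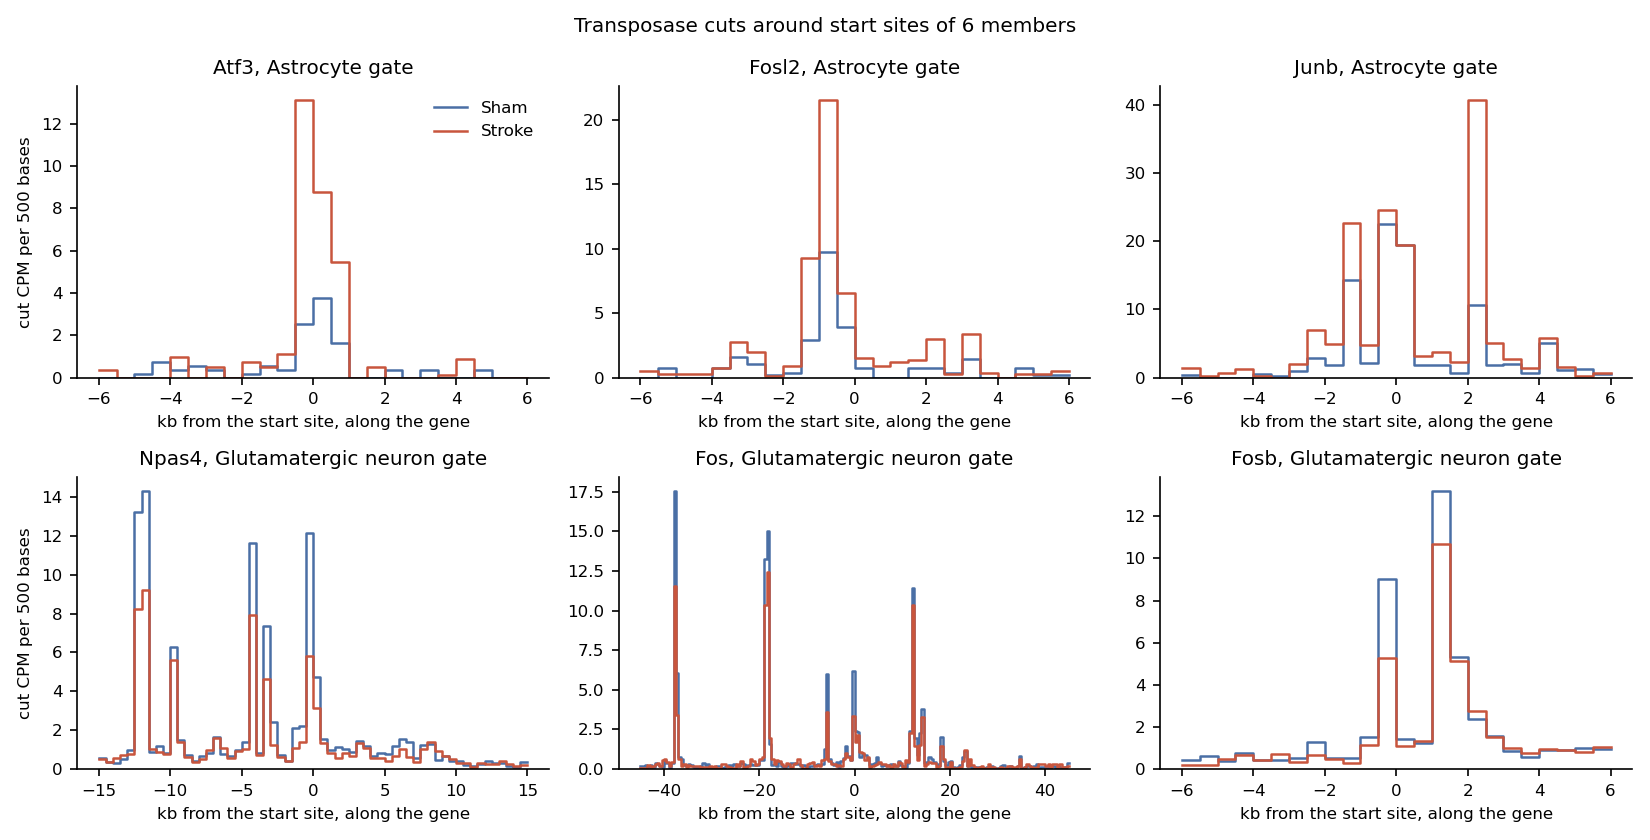
Cut CPM in bins of 500 bases (vertical axis) against the distance from the start site in kb (horizontal axis) for Atf3, Fosl2 and Junb in astrocytes and for Npas4, Fos and Fosb in glutamatergic nuclei, with sham in blue and stroke in red. The stroke line is above sham at the start of Atf3 and about 2 kb after the start of Junb, and under sham at the start of Npas4.

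A second readout is the number of cuts at motifs that AP-1, CREB and EGR proteins are known to bind. Cuts within 50 bases of each TGACTCA more than 2 kb from any annotated start (387889 sites) were divided by cuts 1 to 2 kb away. In astrocytes this enrichment was 1.12 in sham and 2.13 in stroke, so the stroke to sham ratio was 1.90. In glutamatergic nuclei it was 1.71 and 1.89, and in GABAergic nuclei 1.63 and 1.86. Oligodendrocytes were at 1.33 and 1.60, OPC nuclei at 1.16 and 1.29, myeloid nuclei at 1.32 and 1.54 and vascular nuclei at 1.58 and 1.95. Sham astrocytes and OPC nuclei thus had the lowest values of the sham gates, and stroke astrocytes the highest value of any. Per astrocyte nucleus with at least 200 cuts in the flanks, the median enrichment was 1.05 over 351 sham nuclei and 1.89 over 489 stroke nuclei, with quartiles of 0.957 and 1.13 in sham and of 1.31 and 2.67 in stroke. Depth was not evened between nuclei for these medians.

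The other 5 motifs of the same readout differed less between the libraries in astrocytes. The full CRE was at 2.36 in sham and 2.29 in stroke, EGR at 3.95 and 3.99, the E-box type CACCTGC at 0.923 and 0.877, the ETS type CCGGAAGT at 1.85 and 1.98 and the NFI type TTGGCA at 1.56 and 1.57. In glutamatergic nuclei the CRE was lower in stroke, at 2.12 and 1.79, as was EGR at 3.74 and 3.38, while AP-1 was higher. GABAergic nuclei had the CRE at 2.18 and 1.92 and EGR at 3.59 and 3.41. The counting intervals of the 2 libraries did not overlap for the CRE in either neuronal gate. A smaller decrease was also found at the ETS type. Without the filter on peaks, the CRE was at 2.12 in sham and 1.77 in stroke in glutamatergic nuclei. The ETS type was at 1.56 and 1.48 in these nuclei under that setting. In GABAergic nuclei it was at 1.61 and 1.56, and in both gates these intervals did not overlap. The NFI type was at 1.26 and 1.27 in glutamatergic nuclei under that setting, and the E-box type at 1.11 and 1.11. In GABAergic nuclei the NFI type was at 1.11 and 1.11 and the E-box type at 1.21 and 1.19. Many factors share these letters, and which protein was bound is not measured. Over all nuclei the AP-1 enrichment was 1.59 in sham and 1.78 in stroke, and without the filter on peaks it was lower in stroke, with a ratio of 0.970.

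**Figure D4:**
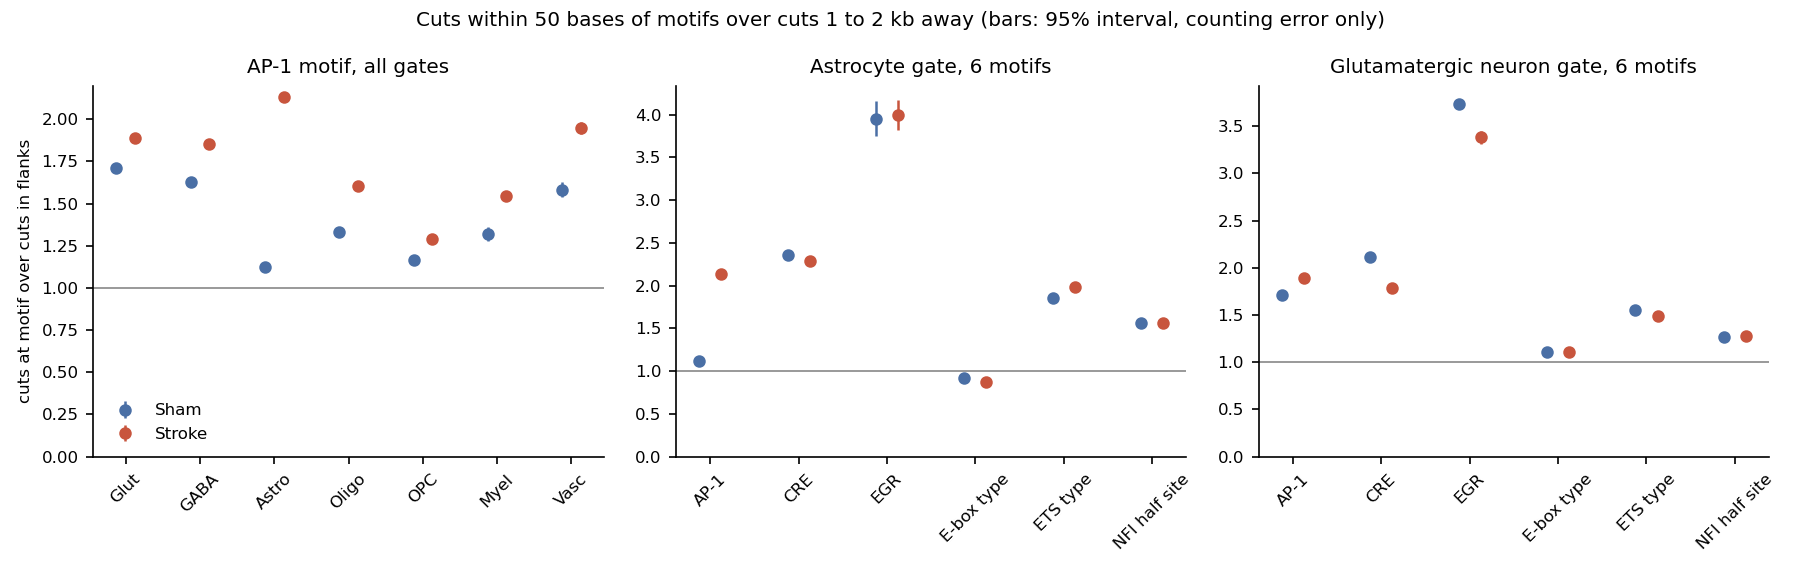
Cuts within 50 bases of a motif over cuts 1 to 2 kb away (vertical axis) for the AP-1 motif in the 7 gates (left), and for 6 motifs in the astrocyte (middle) and glutamatergic (right) gates, with sham in blue and stroke in red. Bars are 95% intervals for counting error, and the line at 1 marks no enrichment. The AP-1 motif in astrocytes goes from 1.12 to 2.13, and the CRE and EGR motifs are lower in stroke in glutamatergic nuclei.

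Genes that work with the members were read from 4 lists. Among the AP-1 family and dimer partners, all 12 of which were tested in astrocytes, 2 were past 1.5-fold higher and 1 lower, with a median log2 ratio of 0.14. These shares stand beside the 9.46% higher and 6.19% lower of all genes in this gate. Maff, a small Maf protein, was at 20.2 and 37.4 CPM (1.86, 1.36 to 2.57), and Batf, an AP-1 protein of lymphoid and myeloid cells, at 11.9 and 19.3 (1.63, 1.07 to 2.52). The lower partner was Batf3, with 17 fragments in sham and 16 in stroke (0.648, 0.306 to 1.36), named here although its interval held 1. Batf was also past 1.5-fold in glutamatergic nuclei (6.27 and 9.94, ratio 1.58), the 1 partner of 12 there, beside 4.68% of genes higher and 1.01% lower. In GABAergic nuclei none of the 12 was past it, beside 3.84% and 2.12%.

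Of 26 other immediate early genes tested in astrocytes, 3 were past 1.5-fold higher and 1 lower, near the 9.46% and 6.19% of all genes. These were Ier3, an early stress response gene (6.12 and 16.9, ratio 2.75, 1.60 to 5.00), Klf2, a Krüppel-like factor (8.28 and 19.8, ratio 2.39, 1.49 to 3.99), and Cebpb, a leucine zipper factor of inflammation (15.5 and 24.0, ratio 1.55, 1.07 to 2.28). The lower gene was Egr4 (7.92 and 5.20, ratio 0.657), whose interval (0.344 to 1.25) held 1. In glutamatergic nuclei none of the 27 was past 1.5-fold, beside 5.68% of all genes in either direction, and their median log2 ratio was -0.21, beside -0.25 for the members and -0.03 for all genes. In GABAergic nuclei likewise none of the 27 was past it, beside 5.95%, with a median of -0.13. Over all nuclei Egr4, an activity-induced relative of Egr1, was at 25.3 and 16.8 (0.665, 0.613 to 0.721) and was the only one of the 27 past 1.5-fold, beside 0.334% of genes lower and 10.7% higher.

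None of the 16 upstream kinases and factors, among them the JNK and ERK kinases, serum response factor, CREB and the MEF2 factors, was past 1.5-fold in glutamatergic, GABAergic or astrocyte nuclei, with medians of -0.08, -0.06 and 0.05, beside 5.68%, 5.95% and 15.6% of all genes past it in either direction and a median of -0.03 in each gate. Of the 10 AP-1 targets in injury, 6 had enough fragments to be tested in astrocytes. Of these, 3 were past 1.5-fold higher and the median log2 ratio was 0.54, beside 9.46% of all genes higher and a median of -0.03. Cd44, a hyaluronan receptor, was at 25.9 and 85.3 (3.29, 2.55 to 4.30) and Hmox1, heme oxygenase, at 11.5 and 20.1 (1.74, 1.14 to 2.71). Timp1, an inhibitor of metalloproteinases, had 3 fragments in sham and 32 in stroke, a ratio of 7.34 with an interval of 2.30 to 37.5. With as few fragments in stroke as in sham, Timp1 would not have reached the minimum for testing. Its being tested and its being higher are therefore not independent, and it counts among the 3 and in the median. The list was also chosen with earlier results of these data known, so its share and median are descriptions. Cd44 was also past 1.5-fold in GABAergic nuclei (18.4 and 31.8, ratio 1.72), the 1 target of 9 tested there, beside 3.84% of genes higher. In OPC nuclei it was the 1 of 2 targets tested (20.6 and 58.6, ratio 2.85, 1.59 to 5.31), beside 9.06%. In glutamatergic nuclei the 1 target of 10 past it was Sprr1a (0.787 and 1.24, ratio 1.57, 0.878 to 2.79), on 28 and 25 fragments, beside 4.68% of genes higher.

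Over the 14 points given by 7 gates in 2 libraries, some members varied together. Levels of Fosb and Fosl1 correlated with a Pearson r of 0.826, although the highest Fosl1 level was the sham vascular value that came mostly from 1 nucleus. Levels of Junb and Atf3 correlated with a Pearson r of 0.820, those of Fosl2 and Atf3 of 0.800, those of Fos and Jun of 0.791 and those of Fosl2 and Junb of 0.770, on the log2 scale of CPM plus 1. Npas4 had r of -0.645 against Junb and -0.580 against Jun, and positive r with Egr1 (0.313), Fosb (0.219) and Fosl1 (0.128). Egr1 had no r above 0.329, its value with Fos, and -0.433 with Atf3. The genes most like Npas4 of all tested were Dcx (0.968) and Cacng6 (0.967), and those most like Jun were Nfic (0.942) and Prdx1 (0.926). Fos was nearest to Htra1 (0.928) and Atf3 to Gm5127 (0.937). The points share libraries and differ widely in depth, so the values are descriptions, and gates with few nuclei weigh as much as the large ones.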

How the data were processed

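Single-cell ATAC-seq fragments of 1 sham and 1 stroke library were analysed. Per the submitters' processing notes, the authors ran Cell Ranger ATAC 2.1.0 on the mm10 genome and deposited fragment positions with the read pairs behind each fragment and, per barcode, fragment counts and the cell call. Fragments, counted once each, were summed over GENCODE M21 genes. Nuclei were embedded by latent semantic indexing of 5 kb tiles (341832 tiles, components 2 to 30, tiles within 100 kb of a member left out). Marker fragments were pooled over 30 nearest neighbours, scaled between the 25th and 99.5th percentiles and gated at 0.5, a rule set after the data were seen. No doublet caller was run; nuclei passing more than 1 gate (3 in sham, 5 in stroke) were left without a class. The members and lists were chosen with earlier results of these data known. Named list genes were the 3 with the largest ratio past 1.5-fold whose interval left out 1, and Batf3, Sprr1a and, in astrocytes, Egr4 were named after their values were seen; likeness named the 2 highest r. Ratios and intervals were tested on simulated data drawn as independent Poisson counts, which is the model the intervals assume. Fragments clustered within single nuclei were not simulated, so that test says nothing of their effect. Python 3.11.15, NumPy 2.4.6, SciPy 1.17.1 and scikit-learn 1.9.0 were used. Total depth was 76959104 fragments in sham and 96465679 in stroke.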

Additional observations from a re-analysis of the deposited data

Results flagged for a closer look

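Fosl2 stood out because its stroke to sham ratio had opposite directions in 2 classes, with both counting intervals leaving out no change. The log2 ratio was 1.12 in the astrocyte gate and -0.24 in the glutamatergic gate. In the glutamatergic gate the ratio within 1 kb of the start was 0.929 (0.809 to 1.06), with an interval that held 1. In the rest of the window it was 0.796 (0.711 to 0.891). Scaling to fragments near starts raises every glutamatergic ratio alike, moving Npas4 from -0.66 to -0.50 in log2. The upper end of the Fosl2 interval, -0.12 in log2, lies nearer to no change than that shift. Under that setting the glutamatergic interval of Fosl2 therefore held no change. Each value comes from 1 library per condition, and the difference between the gates was not tested.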

How the results depend on the processing

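Of 675 log2 ratios of members under other settings, 632 stayed within the counting interval of the reported value and 607 kept its direction; Fosb in the myeloid gate turned to -0.053 with the mean per nucleus. The numbers of members past 1.5-fold that moved by more than 1.5 times follow, each with the share of all genes past it under the same setting, and the cause was not tested. With the promoter alone there were 2 in all (9.15%), 3 in glutamatergic (7.21%), 1 in oligodendrocyte (27.8%), 2 in OPC (23.4%) and 0 in vascular nuclei, where no member reached 30 fragments. In astrocytes there were 1 higher and 1 lower of 8 tested (15.9%), against 3 higher. This setting used the GENCODE start, which for Atf3 lies 34706 bases from the RefSeq start. It therefore did not count the Atf3 promoter shown above. Without the filter on peaks there were 4 in all (38.4%), 2 in GABAergic (6.39%), 1 in OPC (24.6%) and 3 in vascular nuclei (48.3%). Scaling to fragments near starts gave 0 in glutamatergic (8.41%), 4 in myeloid (51.2%) and 0 in vascular nuclei (39.9%). The mean per nucleus gave 2 in GABAergic (9%), 5 in astrocyte (25%), 6 in oligodendrocyte (43.7%), 2 in OPC (31%) and 2 in vascular nuclei (48.4%). Cuts gave 3 in OPC (28.2%) and 3 in vascular nuclei (45.2%). A stricter gate gave 2 in GABAergic (7.15%) and 4 in myeloid nuclei (55.9%), and bounds on the fragments in peaks per nucleus gave 0 in vascular nuclei (41.5%). No minimum gave 3 in OPC (41.3%), 4 in myeloid (65.8%) and 4 in vascular nuclei (65.4%). Of the alternatives chosen after seeing the data, 15 neighbours gave 4 in myeloid (55.5%) and 2 in vascular nuclei (38.4%), and leaving out the nucleus with most fragments gave 1 in OPC (21.4%) and 6 in myeloid nuclei (59.8%). The AP-1 ratio in astrocytes (1.90) was 1.92 for motifs over 10 kb from a start, 1.80 within 100 bases and 1.80 without the filter, which gave 0.970 over all nuclei.

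Atf3 and Fosl2 in astrocytes and Npas4 in GABAergic nuclei stayed past 1.5-fold under every setting that gave a value, whereas Npas4 in glutamatergic nuclei did not (-0.50 scaled near starts), nor did Fosl2 in oligodendrocytes (0.57 without the filter on peaks). In astrocytes Atf3 ranged from 0.78 to 1.94 in log2 ratio, Fosl2 from 0.997 to 1.26 and Junb from 0.18 with the promoter alone to 0.92. No paired analysis was possible because a single library stood for either condition, and no replicate could be left out. The oligodendrocyte, OPC, myeloid and vascular gates held few fragments, which widens their intervals.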
